A study of Mus musculus with 16 samples.

Results

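The genes described here are 32 mouse genes of the interferon response and of antigen presentation by class I molecules. They were taken as a list of symbols from tables of 26371 genes (neurons at basal activity) and 55304 genes (silenced neurons). The list was drawn up with earlier results of these data known, so it is not independent of them. The list holds 4 transcription factors (Irf1, Irf7, Irf9, Stat2), 3 sensors of foreign nucleic acid (Ifih1, Ddx58, Zbp1) and 12 antiviral effectors (Ifit1, Ifit2, Ifit3, Mx1, Mx2, Oas1a, Oas2, Oasl2, Rsad2, Bst2, Ifitm3, Xaf1). It also holds 2 genes of the ubiquitin-like Isg15 system (Isg15, Usp18), 2 guanylate-binding GTPases (Gbp2, Gbp3), 3 chemokines (Cxcl10, Ccl2, Ccl5) and 6 genes of antigen presentation (H2-K1, H2-D1, B2m, Tap1, Psmb8, Psmb9).

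Interferons are secreted by cells that detect viral or misplaced nucleic acid, and they act on neighbouring cells through JAK kinases and STAT factors. Type I interferon activates a complex with Stat2 and Irf9 that binds the interferon-stimulated response element (ISRE), while interferon gamma acts at the gamma-activated site (GAS). The target genes block viral replication, attract immune cells and load peptides onto class I molecules. In the brain microglia and astrocytes respond strongly, and neurons are known for a low class I level.

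The cells were primary cortical neurons from C57/BL6 mouse embryos of embryonic day 17.5 to 19.5, with the embryos of 1 litter pooled into each replicate. All groups received an adeno-associated virus (AAV) carrying a short hairpin from day 8 to day 13 in culture. The hairpin was either a control (shControl) or 1 of 2 against Nup153 (shNup153_1 and shNup153_2), a nucleoporin of the basket on the inner face of the nuclear pore. Cultures at basal activity gave 4 shControl, 2 shNup153_1 and 2 shNup153_2 libraries that could be matched to a label. Silenced cultures gave 3 shControl and 3 shNup153_2 libraries. They had been treated with tetrodotoxin, a sodium channel blocker, at 1 to 2 µM for 24 hours, and with D-AP5, an NMDA receptor blocker, at 100 µM for 6 hours before collection. The sources used here do not give the promoter of the hairpins, the AAV serotype or the share of cells infected, and no uninfected culture was among the groups.

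Libraries held 26863535 to 56299817 counts. Nup153 itself stood at 54.0 to 94.4 CPM (a gene's share of a library's counts, scaled to the same library size) in the basal shControl libraries, at 17.3 and 28.2 CPM with shNup153_1 and at 13.4 and 11.5 CPM with shNup153_2. In silenced cultures it stood at 51.6 to 64.0 CPM with shControl and 9.37 to 13.3 CPM with shNup153_2. The submitters kept cultures whose Nup153 loss was large enough, so these values describe the selection. Neuronal markers were abundant in all libraries, at a summed level of 4866 to 8325 CPM over 10 genes. The cultures were not neurons alone: 10 astrocyte markers summed to 240.4 to 3069 CPM and varied within groups. In the basal shControl group they summed to 2609, 477.4, 1777 and 1231 CPM in replicates 1 to 4, lowest in replicate 2. In the last 9972 lines of the basal table the shNup153_1 columns are out of line with the gene names (correlation with shControl 0.0959, against 0.975 above them). Psmb9 lies among those lines and has no value with shNup153_1.

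Sequences near the start sites are shown for 7 members described below. The ISRE and the GAS are the textbook route from interferon to these genes. The GC box shown for Tap1 is not part of that route. Each is a 30-base stretch of the RefSeq promoter window (GRCm38.p6), read 5′ to 3′ on the strand of the gene, and capitals mark the match to a motif. Matches were searched on both strands, so an ISRE core can read GAAANNGAAA or TTTCNNTTTC. The Cxcl10 stretch lies at chr5:92349083-92349112 (minus strand), that of Gbp3 at chr3:142559992-142560021 (plus) and that of Gbp2 at chr3:142620594-142620623 (plus). The stretch of Stat2 lies at chr10:128270266-128270295 (plus) and that of B2m at chr2:122147538-122147567 (plus). Irf1 is shown with a GAS core at chr11:53769913-53769942 (plus). Tap1 is shown with a GC box at chr17:34187368-34187397 (plus), a stretch that also belongs to the promoter of Psmb9.
Cxcl10: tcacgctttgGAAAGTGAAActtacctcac
Gbp3: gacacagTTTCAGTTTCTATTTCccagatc
Gbp2: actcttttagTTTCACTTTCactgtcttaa
Stat2: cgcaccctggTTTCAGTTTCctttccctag
B2m: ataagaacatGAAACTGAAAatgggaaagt
Irf1: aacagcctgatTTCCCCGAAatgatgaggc
Tap1: cagactgaggccCCGCCCcatcatcgcgca

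Of the 32 genes, 25 had a promoter window of 250 bases before to 50 bases after the start. Zbp1, Mx1, Mx2, Oas2, Usp18, Ccl2 and Ccl5 had none. An ISRE core stood in a window of 14 of the 25 genes (56%), against 3.99% of 27025 genes and 3.44% of all 32851 windows of the same length. Besides the 5 genes shown with it, these were Ifih1, Ddx58, Ifit1, Ifit3, Oas1a, Rsad2, Bst2, Ifitm3 and Isg15. The 2 cores of Gbp3 overlap each other and begin 45 and 39 bases before the start. The GAS core TTCNNNGAA stood in a window of 6 of the 25 genes (24%, against 9.55% of all genes): Irf1, Ifit2, Oas1a, Bst2, Ifitm3 and Psmb8. The GC box GGGCGG stood in a window of 10 of the 25 genes (40%, against 38.2% of all genes). The windows of H2-K1, H2-D1, Tap1 and Psmb9 held no ISRE core. Tap1 and Psmb9 run in opposite directions from starts 226 bases apart, and their windows share 275 bases. A match is a description of the letters and not a bound site.

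The members were expressed over a wide range. In the basal shControl libraries, per kilobase of exon, B2m was the highest at 26.3 ± 5.20 CPM per kb (SD, n = 4), followed by H2-K1 at 14.8 ± 10.1, H2-D1 at 14.2 ± 1.34 and Ifitm3 at 5.13 ± 3.82 CPM per kb. H2-K1 and H2-D1 differed by less than their spread. Stat2 at 3.98 ± 0.177 and Tap1 at 3.20 ± 1.16 CPM per kb came next and also lay within their spread. The genes that are best known as markers of an interferon response were near the floor: Isg15 was at 0.194 ± 0.221, Ifit1 at 0.0846 ± 0.0766, Irf7 at 0.0400 ± 0.0373 and Cxcl10 at 0.0244 ± 0.00814 CPM per kb. At basal activity 29 of the 32 genes had a row (all but Zbp1, Oas1a and Ccl5), and 27 of them passed the filter of 10 or more counts in at least 2 libraries. Oas2 and Ccl2 did not, with at most 4 counts in any basal library. In silenced cultures all 32 had a row and 18 passed. Oas1a and Ccl5 had 0 counts in all 6 silenced libraries, which allows up to 3 counts or 0.0692 to 0.105 CPM per library.

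Cxcl10 and Gbp3 rose with both hairpins at basal activity, and Stat2 fell with shNup153_1. Cxcl10 passed the count filter through the knockdown libraries alone, where it was high. With shNup153_1, 2 of 26 tested members were higher and 1 was lower than with shControl (edgeR's quasi-likelihood test, adjusted p under 0.05). Of all 14705 genes tested in that comparison 13.3% were called, 6.41% higher and 6.94% lower. With shNup153_2, 2 of 27 tested members were higher and 0 were lower, where 9.1% of 20191 genes were called, 5.64% higher and 3.46% lower. The median log2 fold change of the tested members was 0.20 with shNup153_1, against -0.02 over all genes tested, and -0.32 with shNup153_2, against -0.03. In both comparisons the share of members called was near that of all genes, so the counts say nothing particular about these genes. Both comparisons use the same shControl libraries. Below, some genes are said to have all libraries of a group above or below those of another. How many of all genes separate in this way was not counted, so separation cannot be read as particular to the members.

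**Figure D1:**
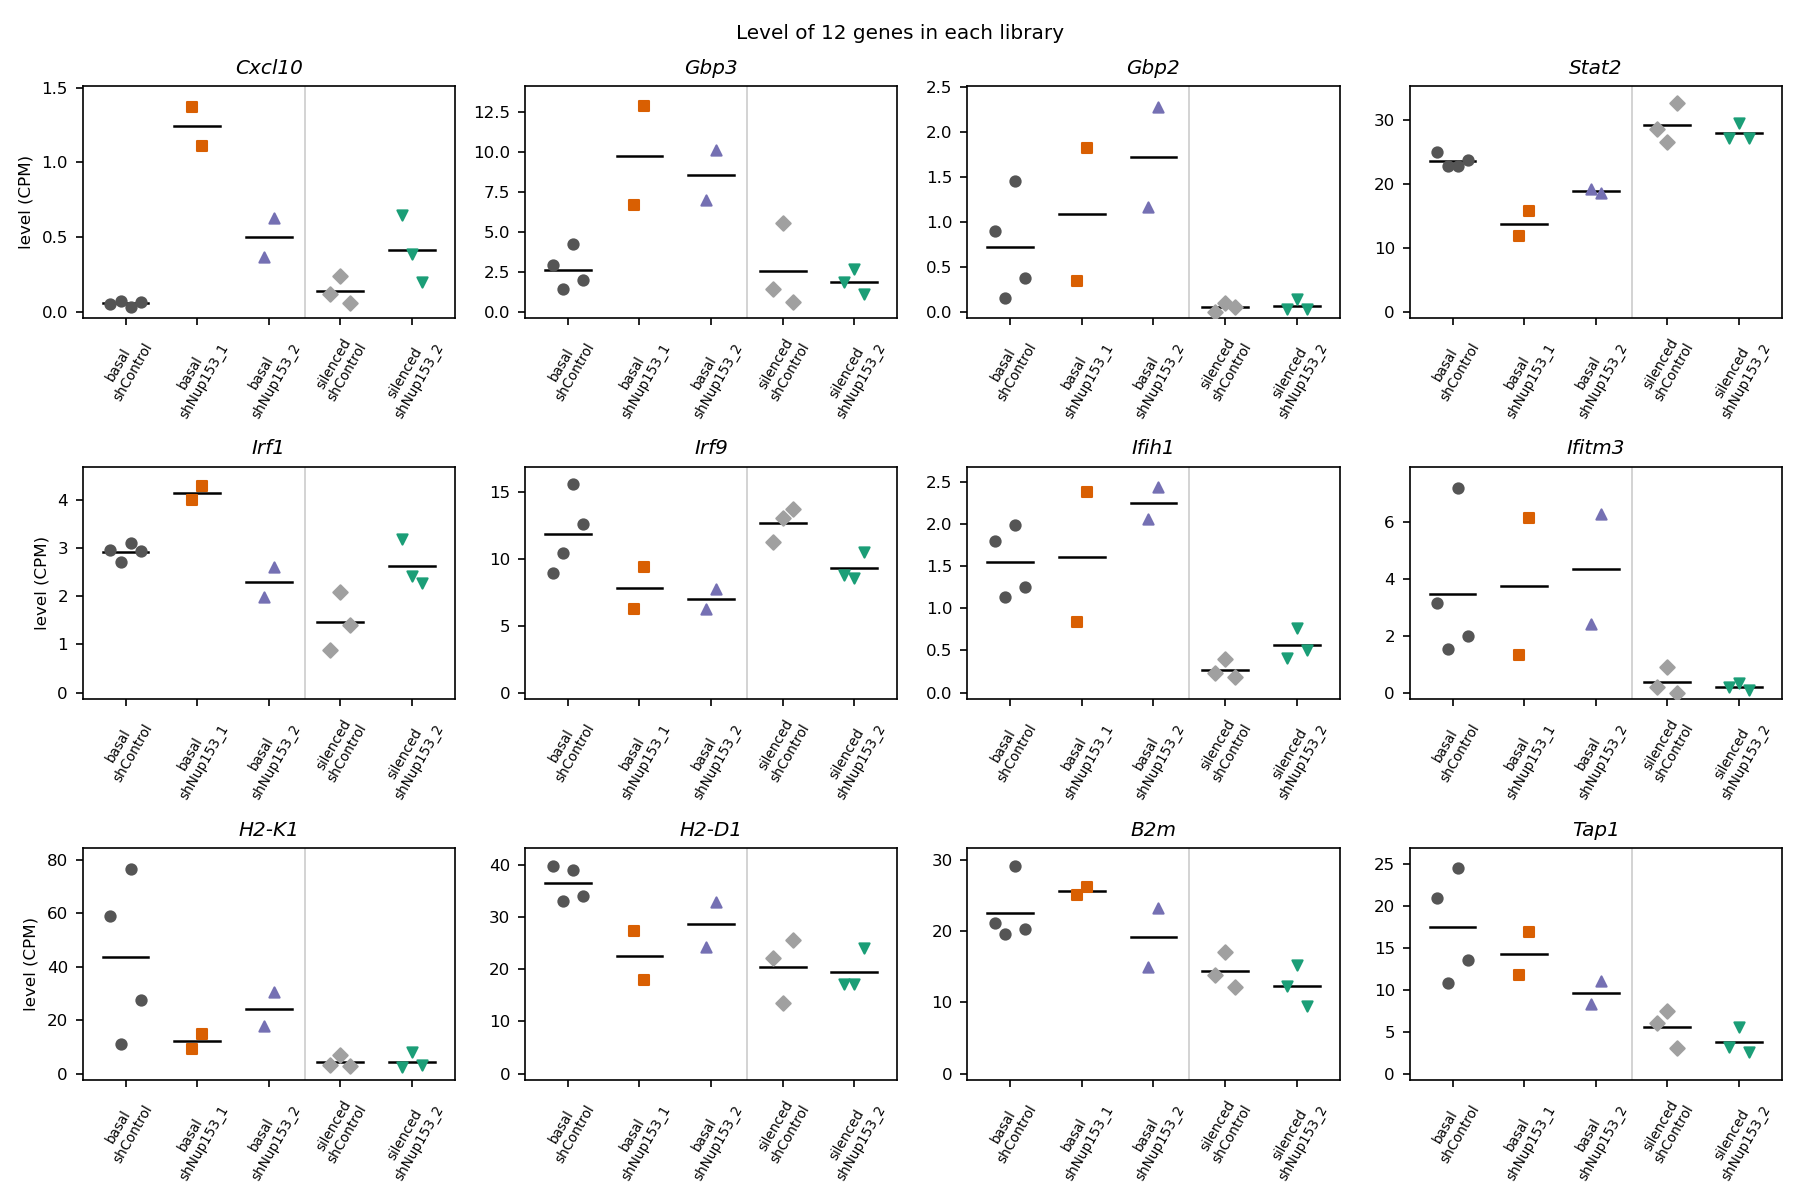
Level of 12 members in CPM (vertical axes) in each library of the 5 groups, with 1 point per library and a bar at the group mean; replicates run from left to right. Cxcl10 and Gbp3 are above all basal shControl libraries with both hairpins at basal activity, and H2-K1, Ifih1, Ifitm3, Tap1 and Gbp2 are lower in all silenced shControl libraries than in any basal one.

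Cxcl10 encodes a chemokine that attracts activated T cells and is a sensitive target of interferons. The gene lies on chromosome 5 (92346638 to 92348889, minus strand, GRCm38). Its counts were 3, 2, 1 and 2 in the basal shControl libraries, 36 and 36 with shNup153_1, and 16 and 24 with shNup153_2. These are levels of 0.0535, 0.0731, 0.0302 and 0.0628 CPM, of 1.37 and 1.11 CPM, and of 0.367 and 0.629 CPM. Each knockdown library was above each control library. The log2 fold change was 4.41 (SE 0.47, edgeR adjusted p = 0.0019) with shNup153_1 and 3.12 (SE 0.56, edgeR adjusted p = 0.017) with shNup153_2. Since the control libraries held 1 to 3 counts, the ratio of summed counts carries a wide counting interval: 22.8 (95% exact interval 11.0 to 54.8) for shNup153_1 and 9.07 (4.19 to 22.4) for shNup153_2. Cxcl10 kept its call with shNup153_1 without any single shControl library, and lost it with a replicate block (edgeR adjusted p = 0.16). Its log2 fold change there was 4.20 to 4.56 over all alternatives. The shNup153_2 libraries of that fit were not left out. With shNup153_2 Cxcl10 failed the count filter, and so had no test, without replicate 1 or replicate 2 of that group.

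In silenced cultures Cxcl10 had 4, 8 and 2 counts with shControl and 28, 11 and 8 with shNup153_2, which is 0.118, 0.241 and 0.0543 CPM against 0.645, 0.386 and 0.200 CPM. The groups overlapped, since the lowest knockdown library was below the highest control library. The log2 fold change of 1.60 (SE 0.66) did not pass (edgeR adjusted p = 0.25), and the ratio of summed counts was 3.12 (95% exact interval 1.69 to 6.14). Within each replicate number the knockdown library was the higher. With that number as a block, the log2 fold change was 1.61 (SE 0.53, edgeR adjusted p = 0.072). The difference between the effects in the 2 states was -1.57 on the log2 scale (SE 0.89, edgeR adjusted p = 0.51). The intervals cover counting error only. The exons of Cxcl10 overlap those of Art3 on the other strand over 5.91% of their length, and the sources used here do not say whether counting used the strand. The other chemokines, Ccl2 and Ccl5, which attract monocytes and T cells, were at or near 0: Ccl2 had at most 5 counts in any library.

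Gbp3 encodes an interferon-induced GTPase of the guanylate-binding family, which attacks intracellular pathogens and their vacuoles. It lies on chromosome 3 (142560026 to 142573209, plus strand). Its level was 2.89, 1.39, 4.23 and 1.95 CPM in the basal shControl libraries, 6.68 and 12.9 CPM with shNup153_1, and 6.99 and 10.1 CPM with shNup153_2. All 4 knockdown libraries were above all 4 controls. The log2 fold change was 1.87 (SE 0.45, edgeR adjusted p = 0.029) with shNup153_1 and 1.70 (SE 0.41, edgeR adjusted p = 0.041) with shNup153_2. These calls were close to the threshold. With shNup153_1 the adjusted p became 0.052 when the fit held only the 2 groups compared, 0.056 without shControl replicate 1, 0.065 without shControl replicate 4, and 0.062 and 0.18 without replicate 1 and replicate 2 of shNup153_1. With shNup153_2 it became 0.057 and 0.11 without the same 2 controls, and 0.18 and 0.31 without replicate 1 and replicate 2 of shNup153_2 (edgeR).

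In silenced cultures Gbp3 was at 1.38, 5.55 and 0.624 CPM with shControl and at 1.84, 2.66 and 1.13 CPM with shNup153_2. The groups overlapped and the log2 fold change was -0.40 (SE 0.75, edgeR adjusted p = 0.84). The difference between the 2 states in the effect of shNup153_2 was -2.16 (SE 0.94, unadjusted p = 0.040 and adjusted p = 0.42 by edgeR), so it was not shown at this number of libraries. Its relative Gbp2, on chromosome 3 (142620602 to 142638008, plus strand), did not pass with either hairpin. Gbp2 stood at 0.892, 0.146, 1.45 and 0.377 CPM in basal shControl, 0.343 and 1.82 CPM with shNup153_1 and 1.17 and 2.28 CPM with shNup153_2. The guanylate-binding genes are close paralogs, and the sources used here do not say how reads shared between them were handled.

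Among the transcription factors Stat2, the partner of Irf9 at the ISRE, fell with shNup153_1. It lies on chromosome 10 (128270559 to 128292849, plus strand). Its level was 25.0, 22.8, 22.7 and 23.8 CPM in basal shControl, a narrow range, against 11.8 and 15.7 CPM with shNup153_1 and 19.1 and 18.6 CPM with shNup153_2. Both hairpins lay below every control. The log2 fold change was -0.80 (SE 0.19, edgeR adjusted p = 0.026) with shNup153_1 and -0.32 (SE 0.17, edgeR adjusted p = 0.24) with shNup153_2. With shNup153_1 the call was lost when the fit held only the 2 groups compared (adjusted p = 0.058), and without shControl replicate 1 (adjusted p = 0.052), shControl replicate 4 (0.066) or shNup153_1 replicate 1 (0.17, edgeR). In silenced cultures Stat2 was at 28.6, 26.5 and 32.6 CPM with shControl and at 27.1, 29.6 and 27.2 CPM with shNup153_2, where the log2 fold change was -0.04 (SE 0.12, edgeR adjusted p = 0.90).

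Irf9, the DNA-binding subunit of the same complex, was at 8.92, 10.4, 15.6 and 12.6 CPM in basal shControl, 6.22 and 9.37 CPM with shNup153_1 and 6.28 and 7.78 CPM with shNup153_2. Neither comparison passed: the log2 fold changes were -0.63 (SE 0.30, edgeR adjusted p = 0.20) and -0.76 (SE 0.28, edgeR adjusted p = 0.12). In silenced cultures Irf9 was at 11.3, 13.1 and 13.7 CPM with shControl and 8.81, 8.59 and 10.5 CPM with shNup153_2, so all knockdown libraries were below all controls. There the log2 fold change was -0.43 (SE 0.15, edgeR adjusted p = 0.18). With the replicate number as a block, since same-numbered silenced libraries deviate together, Irf9 fell by 0.43 on the log2 scale (SE 0.11, edgeR adjusted p = 0.031). That was the 1 member of 18 called in the blocked fit, in which 21% of all genes were called and 9.8% were lower.

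Irf1, a factor induced early by interferon gamma, was at 2.96, 2.71, 3.11 and 2.95 CPM in basal shControl. It stood above that range with shNup153_1, at 4.01 and 4.30 CPM, and below it with shNup153_2, at 1.99 and 2.62 CPM. Neither difference from shControl passed (log2 fold change 0.48 with SE 0.25 and -0.35 with SE 0.28, edgeR adjusted p = 0.25 and 0.43). The difference between the hairpins was -0.82 (SE 0.30, unadjusted p = 0.023 and adjusted p = 0.14 by edgeR). Irf7, the main amplifier of type I interferon production, was at most 0.332 CPM in any library.

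The sensors of double-stranded RNA did not pass with either hairpin. Ifih1 (MDA5, which binds long RNA) was at 1.80, 1.13, 1.99 and 1.26 CPM in basal shControl, 0.840 and 2.38 CPM with shNup153_1 and 2.06 and 2.44 CPM with shNup153_2. The log2 fold changes were 0.04 (SE 0.46, edgeR adjusted p = 0.97) and 0.53 (SE 0.34, edgeR adjusted p = 0.32). Both shNup153_2 libraries of Ifih1 were above all controls. Ddx58 (RIG-I, which binds RNA with a 5′ triphosphate) was at 3.34, 0.731, 4.17 and 2.20 CPM in basal shControl, 1.72 and 4.58 CPM with shNup153_1 and 1.47 and 2.59 CPM with shNup153_2. Those groups overlapped. Zbp1, a sensor of left-handed nucleic acid, had at most 3 counts in any silenced library.

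Of the 12 antiviral effectors 10 were tested at basal activity, and 0 were called with shNup153_1 (1 at unadjusted p under 0.05, Mx2) and 0 with shNup153_2 (0 at that level) by edgeR. DESeq2 and limma-voom also called 0 in both. Ifit2, which binds viral RNA, was at 10.7, 4.75, 10.6 and 8.51 CPM in basal shControl, 8.09 and 15.6 CPM with shNup153_1 and 11.4 and 11.1 CPM with shNup153_2. Its relative Ifit3 was at 2.68, 2.01, 1.84 and 2.20 CPM, 2.25 and 4.33 CPM, and 1.05 and 1.57 CPM in the same groups. With shNup153_2 Ifit3 was thus below all controls and Ifit2 above them. Neither passed: the log2 fold changes were -0.74 (SE 0.34, edgeR adjusted p = 0.19) for Ifit3 and 0.38 (SE 0.32, edgeR adjusted p = 0.46) for Ifit2.

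Oasl2, of the family of oligoadenylate synthetases that signal viral RNA to a ribonuclease, was at 0.499, 0.329, 0.785 and 1.76 CPM in basal shControl. It was at 2.25 and 1.18 CPM with shNup153_1 and at 0.390 and 0.183 CPM with shNup153_2. The hairpins did not overlap: their difference was -2.52 (SE 0.82, unadjusted p = 0.014 and adjusted p = 0.11 by edgeR). The classic antiviral GTPases Mx1 and Mx2 were at most 1.24 CPM in any library. Rsad2 (viperin) and Bst2 (tetherin, which holds virus at the cell surface) were at most 1.64 CPM. Isg15, a ubiquitin-like protein joined to others during the response, and Usp18, the protease that removes it, were at most 0.513 CPM in any library and did not pass in any comparison by edgeR. Usp18 came nearest, between the states (log2 fold change -1.97, SE 0.60, edgeR adjusted p = 0.051), and passed there with filterByExpr, without basal shControl replicate 4 and with a replicate block common to both states.

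The antigen presentation genes include the 3 members highest per kilobase in the basal shControl libraries, B2m, H2-K1 and H2-D1. H2-K1 and H2-D1 encode the classical class I heavy chains, B2m their common light chain, Tap1 a peptide transporter subunit, and Psmb8 and Psmb9 proteolytic subunits of the immunoproteasome. By edgeR 0 of 5 tested genes passed with shNup153_1 and 0 of 6 with shNup153_2 (2 and 1 at unadjusted p under 0.05). DESeq2 called H2-K1 and H2-D1 lower with shNup153_1, and limma-voom called 0 in both comparisons. The median log2 fold change of the group was -0.49 with shNup153_1 and -0.72 with shNup153_2.

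H2-K1 (chromosome 17, 33996017 to 34000347, minus strand) had the widest spread among the abundant members. It was at 58.8, 11.0, 76.7 and 27.6 CPM in basal shControl, 9.20 and 14.9 CPM with shNup153_1 and 17.6 and 30.7 CPM with shNup153_2. Replicate 2 of shControl lay within the shNup153_1 range. The log2 fold change with shNup153_1 was -1.89 (SE 0.72, edgeR adjusted p = 0.12). H2-D1 (chromosome 17, 35262730 to 35267499, plus strand) was at 39.9, 33.1, 39.0 and 34.1 CPM in basal shControl, 27.3 and 18.0 CPM with shNup153_1 and 24.3 and 33.0 CPM with shNup153_2. All its knockdown libraries were below all controls, but with shNup153_2 the nearest libraries all but touched (33.02 against 33.05 CPM). The log2 fold changes were -0.72 (SE 0.23, edgeR adjusted p = 0.072) and -0.35 (SE 0.20, edgeR adjusted p = 0.27). The class I heavy chain genes are near-identical in parts, and reads that fit several of them could have been split or dropped.

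B2m (chromosome 2, 122147686 to 122153083, plus strand) was at 21.2, 19.6, 29.2 and 20.4 CPM in basal shControl, 25.2 and 26.2 CPM with shNup153_1 and 15.0 and 23.4 CPM with shNup153_2. Its range with the 2 hairpins overlapped that of the controls. Tap1 (chromosome 17, 34187553 to 34197225, plus strand) was at 21.0, 10.9, 24.6 and 13.6 CPM in basal shControl, 11.8 and 16.9 CPM with shNup153_1 and 8.30 and 11.0 CPM with shNup153_2. The log2 fold change with shNup153_2 was -0.86 (SE 0.35, edgeR adjusted p = 0.16). Psmb9, which shares the promoter printed above with Tap1, was at 1.43, 1.10, 1.48 and 0.785 CPM in basal shControl and at 0.711 and 0.681 CPM with shNup153_2 (log2 fold change -0.79, SE 0.39, edgeR adjusted p = 0.22). The exons of Tap1 and Psmb9 overlap on opposite strands over 3.87% and 5.79% of their length.

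The 2 hairpins were compared with each other in the same fit. Of 26 tested members 0 differed by edgeR (5 at unadjusted p under 0.05), where 4.33% of 14705 genes were called, 2.69% higher and 1.64% lower with shNup153_2. Limma-voom called 0 members and DESeq2 called 3 (Irf1, Oasl2 and Ifit3), all lower with shNup153_2. For Cxcl10 the difference was -1.29 (SE 0.47, edgeR adjusted p = 0.14) and for Gbp3 -0.17 (SE 0.53, edgeR adjusted p = 0.86).

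**Figure D2:**
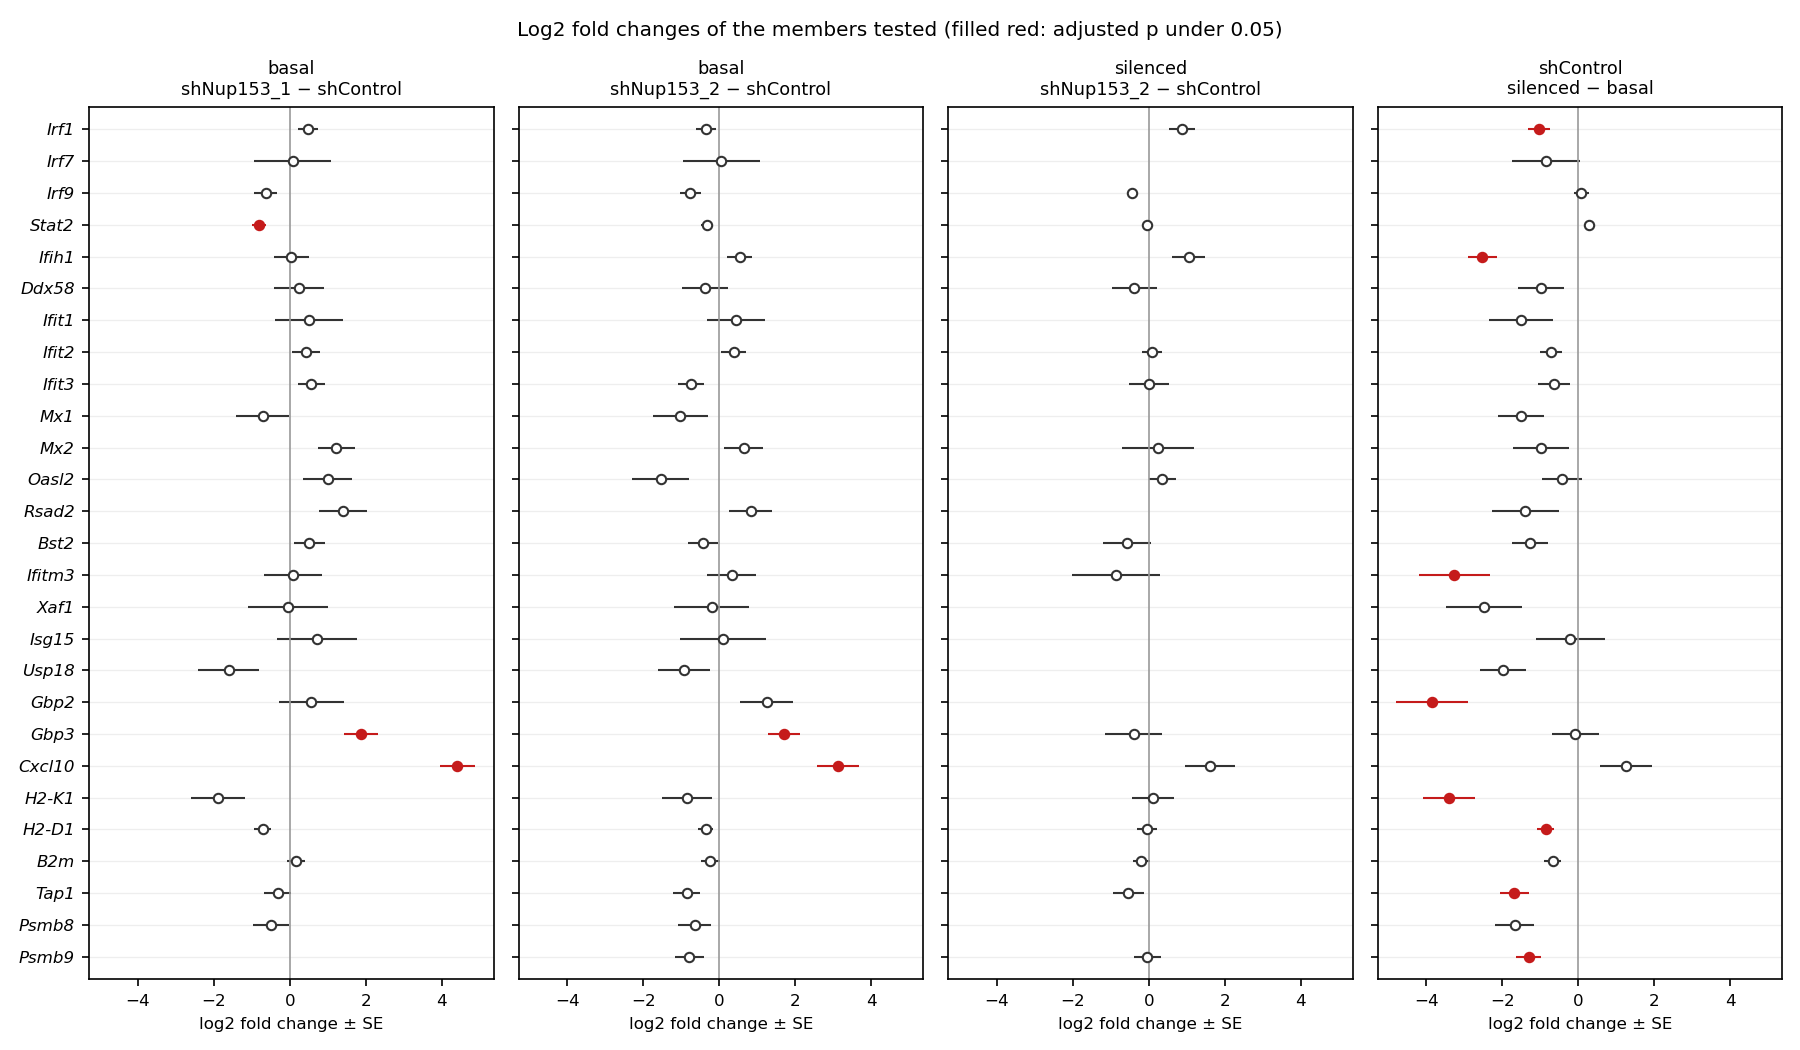
Log2 fold change (horizontal axes) with its standard error for each member tested in 4 comparisons; filled red points have an adjusted p under 0.05 (edgeR). The red points are Stat2, Gbp3 and Cxcl10 with shNup153_1, Gbp3 and Cxcl10 with shNup153_2, none in silenced cultures with shNup153_2, and 8 members that were lower in silenced than in basal shControl cultures.

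In silenced cultures 0 of 18 tested members were called with shNup153_2 by edgeR (4 at unadjusted p under 0.05: Irf1, Irf9, Ifih1 and Cxcl10), and 0 by DESeq2 and limma-voom. Of all 19846 genes tested 3.17% were called, 1.48% higher and 1.69% lower. The median log2 fold change of the members was -0.04, against 0.01 over all genes tested. Irf1 was at 0.883, 2.08 and 1.41 CPM with shControl and 3.20, 2.42 and 2.28 CPM with shNup153_2, so every knockdown library was above every control (log2 fold change 0.88, SE 0.34, edgeR adjusted p = 0.22). Ifih1 was likewise separated, at 0.235, 0.392 and 0.190 CPM against 0.415, 0.771 and 0.501 CPM (log2 fold change 1.05, SE 0.43, edgeR adjusted p = 0.25). H2-K1, H2-D1, B2m, Tap1 and Psmb9 overlapped between the silenced groups. With the replicate number as a block, Irf9 alone was called, as given above, where 21% of all genes were called. Next came Cxcl10, Tap1, Irf1 and Ifih1, at adjusted p = 0.072, 0.073, 0.080 and 0.084 (edgeR, blocked fit).

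Whether the effect of shNup153_2 differed between the states was tested in a joint fit. Of 27 members 0 passed by edgeR (2 at unadjusted p under 0.05, Irf1 and Gbp3) and 0 by DESeq2 and limma-voom. Over all 21286 genes 0.0282% were called, of which 0% were higher and 0.0282% lower. For Irf1 the difference was 1.17 (SE 0.44, edgeR adjusted p = 0.38): its level with shNup153_2 was below that with shControl at basal activity and above it in silenced cultures.

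More members were called between the states than in any other comparison by edgeR. In shControl cultures 8 of 27 tested members were lower in the silenced state and 0 were higher, where 12% of 21286 genes were called, 6.14% higher and 5.83% lower. The 8 were Ifih1, H2-K1, Tap1, Gbp2, Psmb9, H2-D1, Irf1 and Ifitm3. DESeq2 called these and Psmb8 and B2m. Limma-voom called Psmb8 and 7 of the 8, without Gbp2 (adjusted p = 0.057). The 2 states stand in separate tables, so a batch between the tables and the silencing cannot be told apart. Of the 27 members 9 passed the count filter through the basal libraries alone, where they were high, and Gbp2 was the 1 of those called. Of the 18 that passed in the silenced libraries too, 7 were called and 15 had a value below 0. Their median log2 fold change was -0.91, against -0.02 over all genes tested.

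Of the 6 antigen presentation genes 4 fell. H2-K1 was at 3.00, 7.03 and 2.63 CPM in silenced shControl, below the lowest basal library at 11.0 CPM, a log2 fold change of -3.39 (SE 0.69, edgeR adjusted p = 0.0094). Tap1 was at 6.0, 7.52 and 3.09 CPM (-1.68, SE 0.39, edgeR adjusted p = 0.017). Psmb9 stood at 0.412, 0.664 and 0.407 CPM (-1.30, SE 0.33, edgeR adjusted p = 0.024), so both genes of the shared promoter fell. H2-D1 was at 22.2, 13.5 and 25.6 CPM (-0.86, SE 0.22, edgeR adjusted p = 0.026). Their light chain B2m was at 13.9, 17.1 and 12.1 CPM, below all basal controls, but did not pass (-0.67, SE 0.23, edgeR adjusted p = 0.077).

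Among the others, the sensor Ifih1 fell by 2.52 on the log2 scale (SE 0.37, edgeR adjusted p = 0.0023) to the silenced levels given above, all of which were under the lowest basal library at 1.13 CPM. Ifitm3, which blocks entry of enveloped viruses, was at 3.18, 1.54, 7.22 and 1.98 CPM in basal and 0.206, 0.906 and 0 CPM in silenced shControl (-3.26, SE 0.93, edgeR adjusted p = 0.040). Gbp2 had 0, 3 and 2 counts in silenced shControl (log2 fold change -3.85, SE 0.94, edgeR adjusted p = 0.022). The ratio of its summed counts, basal to silenced, was 16.0 (95% exact interval 6.65 to 50.1). That interval covers counting error only and not the spread between libraries. Irf1 fell by 1.03 (SE 0.29, edgeR adjusted p = 0.039). Stat2 and Irf9 did not fall: Stat2 was above all basal libraries in all 3 silenced ones (log2 fold change 0.29, SE 0.12, edgeR adjusted p = 0.13) and Irf9 differed by 0.08 (SE 0.20, edgeR adjusted p = 0.84).

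These calls rested on single libraries in part. Ifih1 was the 1 member called without silenced shControl replicate 1. Without silenced shControl replicate 3 the calls were Ifih1, H2-K1 and H2-D1, and without basal shControl replicate 3 they were Ifih1, H2-K1 and Tap1. Without basal shControl replicate 1, Ifih1, H2-K1, Tap1 and Gbp2 were called. H2-D1 was lost without silenced shControl replicate 2 (edgeR adjusted p = 0.066) and Irf1 without basal shControl replicate 4 (edgeR adjusted p = 0.065). The log2 fold changes kept their sign throughout, at -2.31 to -2.87 for Ifih1 and -2.98 to -3.97 for H2-K1 over all alternatives.

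The states were not tested against each other with shNup153_2, and only levels are given here. How many of all genes separate between these libraries was not counted, so separation is not particular to the members. Of the 8 members called in shControl, Irf1 overlapped. The rest of the 8 were lower in all silenced libraries than in both basal ones. Stat2, Irf9 and Oasl2 were higher in all silenced libraries than in both basal ones. H2-K1 was at 17.6 and 30.7 CPM at basal activity and 2.44, 7.89 and 3.13 CPM when silenced. Ifitm3 was at 2.41 and 6.29 CPM against 0.184, 0.351 and 0.0752 CPM. In both genes all silenced libraries were below both basal ones. Gbp3, which overlapped between the states with shControl (log2 fold change -0.08), was at 6.99 and 10.1 CPM against 1.84, 2.66 and 1.13 CPM with shNup153_2.

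Most members were highest, or lowest, in the same library of a group. Among the 24 members with 10 or more counts in at least 2 basal shControl libraries, 17 were highest in replicate 3 and 16 were lowest in replicate 2. In silenced cultures 9 of 14 such members with shControl and 9 of 15 with shNup153_2 were highest in replicate 2. This order was not counted over all genes, so it cannot be read as particular to the members. The summed level of the antigen presentation members was 142.8, 76.0, 171.4 and 97.0 CPM in basal shControl replicates 1 to 4, and the 2 libraries with most were also the 2 with the most astrocyte marker RNA. With shNup153_1 14 of 18 members, and with shNup153_2 17 of 21, were higher in replicate 2, where the astrocyte markers were also higher (3069 against 1202 CPM, and 2676 against 2320 CPM). The antigen presentation members did not follow the astrocyte markers in every group: with shNup153_1 they summed to 73.6 and 76.4 CPM at 1202 and 3069 CPM of those markers. In bulk RNA fewer cells of a type and less RNA per cell cannot be told apart.

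In silenced cultures the astrocyte markers summed to 492.6, 1205 and 240.4 CPM with shControl and 485.7, 1372 and 256.2 CPM with shNup153_2. The antigen presentation members summed to 45.7, 45.8 and 44.0 CPM and to 35.5, 46.7 and 39.9 CPM in the same libraries. Gfap, the astrocyte filament gene, was at 87.7, 1.68, 148.5 and 10.6 CPM in basal shControl and 1.09, 1.84 and 0.163 CPM in silenced shControl (log2 fold change -5.95, SE 1.53, edgeR adjusted p = 0.027). It was the 1 of 10 astrocyte markers called by edgeR, with 3 at unadjusted p under 0.05. DESeq2 called Gfap and Slc1a2, and limma-voom called 0. The median log2 fold change of the 10 was -1.45, and the part of astrocytes in the fall of the members was not tested.

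**Figure D3:**
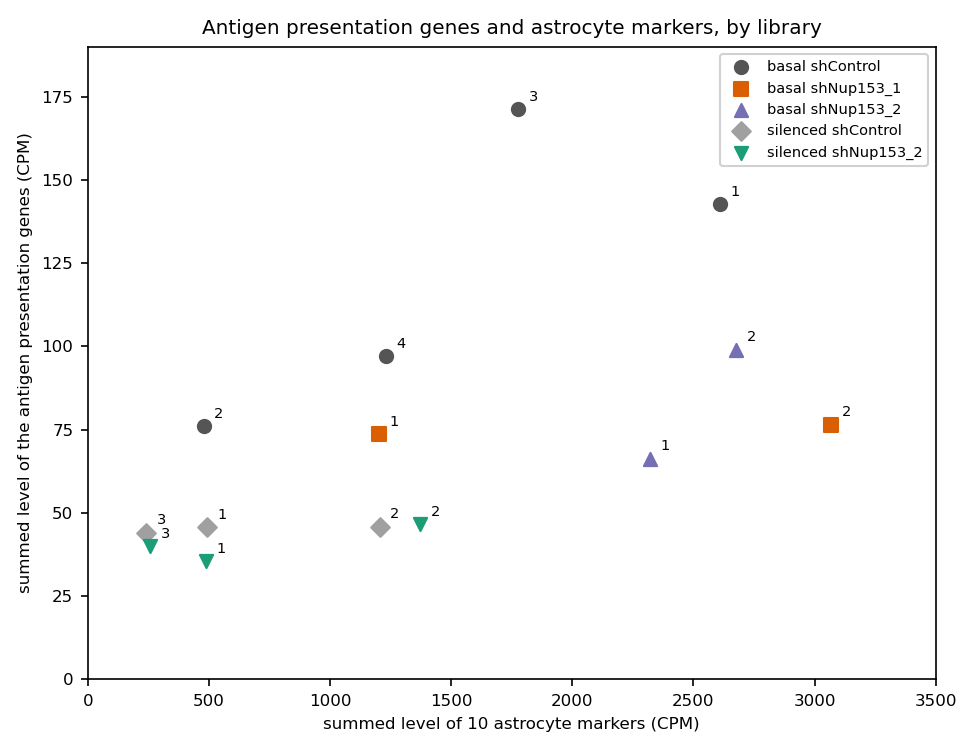
Summed level of the antigen presentation members (vertical axis, CPM) against that of 10 astrocyte markers (horizontal axis, CPM) in each of 14 libraries; labels are replicate numbers, and the shNup153_1 sums lack Psmb9. Silenced libraries lie at 35.5 to 46.7 CPM on the vertical axis over 240.4 to 1372 CPM of astrocyte markers, and basal shControl libraries at 76.0 to 171.4 CPM.

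Markers of other cell types were read in the same libraries. Of 18 microglia markers 9 had a basal row, and 0 to 3 of these were at 0 in a basal library. Trem2 was at 0 in all 4 basal shControl libraries and at most 0.124 CPM in the others, while P2ry12, a microglial receptor, was at 0.125, 0, 0.121 and 0.0314 CPM in basal shControl, 0.115 and 0.866 CPM with shNup153_1, and 0.481 and 0.629 CPM with shNup153_2. DESeq2 and limma-voom called P2ry12 higher with shNup153_2, and edgeR did not (log2 fold change 2.81, SE 0.73, adjusted p = 0.0502). DESeq2 called 2 other microglia markers, Aif1 and Laptm5, lower there. The median log2 fold change of the 6 tested was -0.27 with shNup153_1 and -0.14 with shNup153_2. In silenced libraries 4 to 12 of the 18 markers were at 0, Tmem119 in all 6 libraries. Of 5 markers of T and NK cells 1 had a basal row, and the sum was at most 0.147 CPM in any library. Endothelial markers summed to 17.3 to 33.0 CPM in basal shControl, 7.39 to 10.4 CPM with shNup153_1, 9.13 to 10.5 CPM with shNup153_2 and 8.06 to 12.6 CPM in silenced libraries, where Cdh5 and Ly6c1 were at 0 in all 6. Fibroblast and pericyte markers summed to 6.45 to 19.9 CPM over all libraries. Markers of the oligodendrocyte lineage stood out with shNup153_1, where 7 of 10 tested were higher and the sum was 796.0 and 790.8 CPM against 116.4 to 287.4 CPM in basal shControl (over 10 and 11 genes with a value). The part of these cells in the results was not tested.

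The rest of the pathway was read from lists of other genes. Interferon genes had no row at basal activity and were not read there. In silenced cultures they were at or near 0: Ifna1, Ifna2, Ifna4, Ifnb1, Ifne, Ifnl2 and Ifnl3 had 0 counts in all 6 libraries, and Ifng and Ifnk had 1 count each over all 6. Of the 15 ligands and receptors 6 were tested, and 0 passed in any comparison by edgeR (0 to 1 at unadjusted p under 0.05) or limma-voom. DESeq2 called Ifngr1 lower in silenced shControl. The kinases, Stat factors and regulators of the JAK-STAT pathway (13 of 13 tested) also had 0 calls by edgeR in each comparison, with 0 to 3 at unadjusted p under 0.05. DESeq2 called Jak2 and Ptpn6 with shNup153_1 and Ptpn6 with shNup153_2, and limma-voom called Ptpn6 with shNup153_2.

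Among other genes of nucleic acid sensing Tmem173 was above, and Cgas below, all basal controls with both hairpins, and neither passed the test of the difference between the hairpins (edgeR adjusted p = 0.18 and 0.49). Of 15 tested genes of nucleic acid sensing, 1 was higher with shNup153_1: Tmem173, which encodes STING, the adaptor of cytosolic DNA sensing. It was at 0.0892, 0.329, 0.151 and 0.314 CPM in basal shControl and at 1.76 and 1.70 CPM with shNup153_1 (log2 fold change 2.99, SE 0.49, edgeR adjusted p = 0.0073), and at 0.665 and 0.681 CPM with shNup153_2 (1.65, SE 0.56, edgeR adjusted p = 0.10). With shNup153_2 1 gene of the list was lower at basal activity and 1 in silenced cultures, in both cases Cgas, which encodes the DNA sensor upstream of STING. Cgas was at 2.93, 2.71, 2.84 and 2.73 CPM in basal shControl and at 1.40 and 0.917 CPM with shNup153_2 (-1.27, SE 0.31, edgeR adjusted p = 0.043). In silenced cultures it was at 5.18, 5.64 and 6.49 CPM with shControl and 2.88, 3.16 and 2.46 CPM with shNup153_2 (-1.01, SE 0.19, edgeR adjusted p = 0.046). With shNup153_1 it was at 1.49 and 1.61 CPM, also below all controls (-0.88, SE 0.30, edgeR adjusted p = 0.091), and DESeq2 called it lower. DESeq2 also called Mavs with shNup153_1 and Ikbke with shNup153_2. In shControl cultures Cgas was the 1 gene of the list called between states and was higher when silenced (1.02, SE 0.20, edgeR adjusted p = 0.0089).

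Of 27 other interferon-stimulated genes tested with shNup153_1, Oas1c was higher (log2 fold change 1.77, SE 0.38, edgeR adjusted p = 0.019) and Isg20, an RNA exonuclease, was lower (-3.78, SE 0.48, edgeR adjusted p = 0.0032). With shNup153_2 Isg20 was the 1 gene of 29 called, also lower (-1.93, SE 0.40, edgeR adjusted p = 0.025). Isg20 was at 1.34, 1.94, 2.51 and 1.76 CPM in basal shControl, at 0.115 and 0.155 CPM with shNup153_1 and at 0.459 and 0.524 CPM with shNup153_2. It fell while Cxcl10 and Gbp3 rose. The median log2 fold changes of the list were 0.31 and 0.24, against -0.02 and -0.03 over all genes tested. Between the states, in shControl cultures, 5 of 29 were lower when silenced and 0 higher (median -1.20, against -0.02), namely Samd9l (-1.75), Igtp (-3.03), Parp12 (-1.15), Pml (-0.97) and Ifi35 (-1.47).

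Of 20 other antigen presentation genes tested with shNup153_1, Tapbp, which bridges class I molecules to the peptide transporter, was higher (log2 fold change 0.71, SE 0.18, edgeR adjusted p = 0.035). Canx, a chaperone of the endoplasmic reticulum (-1.42, SE 0.31, edgeR adjusted p = 0.021), and the class II gene H2-Ab1 (-3.80, SE 1.03, edgeR adjusted p = 0.044) were lower. H2-Ab1 was at 26.4, 1.90, 23.3 and 7.51 CPM in basal shControl and 0.763 and 1.39 CPM with shNup153_1, and so shared the wide spread of H2-K1. With shNup153_2 0 of 20 were called by edgeR (4 at unadjusted p under 0.05), 1 by limma-voom and 2 by DESeq2. Between the states 3 of 21 were lower when silenced: H2-Ab1 (-6.06), H2-T23 (-4.33) and H2-M3 (-1.99), the last 2 of them non-classical class I genes.

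Of the other chemokines 2 of 10 were tested. Cxcl12, a chemokine of stromal and perivascular cells, fell with both hairpins, from 14.7 to 25.3 CPM in basal shControl to 5.80 and 7.98 CPM with shNup153_1 (log2 fold change -1.60, SE 0.28, edgeR adjusted p = 0.0089) and 5.75 and 6.08 CPM with shNup153_2 (-1.80, SE 0.28, edgeR adjusted p = 0.010). Cx3cl1, the neuronal ligand of the microglial receptor Cx3cr1, rose with shNup153_2, from 172.8 to 252.8 CPM to 486.4 and 576.7 CPM (1.32, SE 0.23, edgeR adjusted p = 0.015). With shNup153_1 it was at 331.1 and 361.9 CPM (0.68, SE 0.21, edgeR adjusted p = 0.065). In shControl cultures Cxcl12 was lower (-2.01) and Cx3cl1 higher (1.05) when silenced.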

How the data were processed

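Poly(A) RNA was sequenced from strand-specific libraries in paired reads, per the labels' protocols. The authors deposited raw counts per gene, made with FastQC and featureCounts 2.0.1 on mm10, per the submitters' processing notes. The sources used here do not give the aligner, the annotation or the strand setting. Of the deposited columns 2 share a name and were not used, which leaves 14 libraries. Groups come from the sample titles; the descriptions of the shNup153 samples name the control virus instead. For shNup153_1, the last 9972 lines of the basal table were not used.

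Counts were fitted with edgeR 4.0.16 in R 4.3.3 (TMM factors, means model, quasi-likelihood F test, Benjamini-Hochberg adjustment over all genes of a fit, threshold 0.05), keeping genes with 10 or more counts in at least 2 libraries. The shNup153_1 comparisons used all 3 basal groups, basal shNup153_2 its own fit with shControl, and the comparison of states a joint fit. CPM are on 1 TMM scale over all libraries. The intervals of count ratios are 95% exact (Clopper-Pearson). Gene lengths and positions come from GENCODE on GRCm38. In simulated counts, 42% of changes of 1 and 96.9% of changes of 2 on the log2 scale were recovered for shNup153_1 (14593 genes), 37.8% and 95.9% for basal shNup153_2 (19926 genes), 37.4% and 95.9% for silenced shNup153_2 (19692 genes), and 44.3% and 95.8% between states (20676 genes). The simulation gave every gene the same dispersion, 0.05, and changed genes picked at random. Some members varied more than that, such as H2-K1 at 43.5 ± 29.7 CPM (SD) in basal shControl. For these members the shares recovered do not hold, and a change of 2 can be missed. Depth of 26863535 to 56299817 counts leaves members under 0.1 CPM with a few counts each.

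Replicate numbers were checked on residual log2 CPM: same-numbered silenced libraries correlated at 0.27, 0.55 and 0.59, so the numbers pair them by the rule that every pair exceed 0.1, although the labels do not state it. Alternatives were RLE factors, DESeq2 1.42.0, limma-voom (limma 3.58.1), other filters, other sample sets, a replicate block and leaving out each library of the groups compared. The members and lists were chosen with earlier results of these data known. Every member may be named; per-library values are given for members past the threshold in any comparison and for the 6 others with the highest mean CPM, and of each other list up to 4 genes called per comparison. Others quoted (Jak2, Ptpn6, Ifngr1, Mx2, Trem2, P2ry12, Tmem119, Aif1, Laptm5, Gfap, Slc1a2, Mavs, Ikbke, Ifi35) were named after their values were seen.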

Additional observations from a re-analysis of the deposited data

Results flagged for a closer look

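Of the 24 members with 10 or more counts in at least 2 basal shControl libraries, 3 had 1 library far from the other 3, with a gap above Dixon's 95% critical value for 4 values. The gap was 0.861 of the range for Mx2, 0.894 for Bst2 and 0.836 for B2m, and in each the high library was replicate 3. Mx2 was at 0.755 CPM there and at 0.292 to 0.357 CPM in the others, Bst2 at 1.24 CPM against 0.731 to 0.785 CPM, and B2m at 29.2 CPM against 19.6 to 21.2 CPM. Chance gives such a gap in about 1 in 20 groups. Mx2, Bst2 and B2m were not called in any comparison by edgeR.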

How the results depend on the processing

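The 13 log2 fold changes of members past the threshold kept their sign in all 167 alternatives that gave a value, and 124 of these stayed past it. Genes called moved as follows (edgeR count first, then DESeq2): 1962 and 3141 with shNup153_1, 1837 and 3592 with basal shNup153_2, 637 and 2082 between hairpins, 629 and 1738 in silenced cultures, 6 and 249 for the interaction. DESeq2 called 5 members in place of 3 with shNup153_1 and 3 in place of 0 between hairpins. Fitting only the groups compared left 1194 genes and 1 member (Cxcl10) for shNup153_1. The interaction count was 0 with RLE factors, 0 with filterByExpr and 3 without a filter. With the replicate block, same-numbered basal libraries correlate between -0.64 and 0.21, so they share only a number: the block left 0 genes and 0 members for shNup153_1, 0 genes between hairpins, 1 member for basal shNup153_2 (Cxcl10 lost, adjusted p = 0.062), and 2 genes for the interaction. In silenced cultures the block gave 4167 genes and 1 member. Between states a block within state leaves no contrast and was not run; an added block common to both states, chosen after seeing the data, gave 7 members. Leaving out 1 library gave 349 to 2033 genes and 1 to 4 members for shNup153_1, 15 to 2156 genes and 0 to 2 members for basal shNup153_2, 0 to 485 genes between hairpins, 4 to 640 genes in silenced cultures, 0 to 16 for the interaction, and 1051 to 3422 genes and 1 to 9 members between states. Where a group was left with 1 library, that library is assumed to vary like the others. Cxcl10 had no test without either basal shNup153_2 library, because it then failed the count filter. The cause of the other changes was not tested. Depth limits the members that failed the count filter, of which no change can be read. Cxcl10 in basal shControl and Gbp2 in silenced shControl also had under 10 counts in each library, so the size of their changes is uncertain.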
